A study of Mus musculus with 6 samples.

Results

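The 2 arrays titled SHT-BC and Mock-Uterus, of 6 arrays in the study, were compared gene by gene. They were chosen by measured values, since both carried marker genes of ovary, and the difference between them that named Clca1 and Lcn2 as markers is a description too. All 6 arrays were hybridised with Cy5-labelled RNA from tissues of female BALB/c mice. Mice of the SHT groups were given SHT (Sheng-Hua-Tang), a Chinese herbal decoction traditionally taken after childbirth, by mouth at 200 mg/kg for 7 days, and mock mice had no treatment. The labels give brain as the tissue of the SHT-BC array and uterus as that of the Mock-Uterus array. The labels give neither the age of the mice, nor their stage of the oestrous cycle, nor how many mice stand behind an array. Each labelled group held 1 array, so no difference below has a replicate check or a test, and each is given as a size only.

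The ovary holds follicles, in which granulosa and theca cells surround an oocyte, and corpora lutea, which form from ovulated follicles and make progesterone. A thin surface epithelium covers it, a fat pad adjoins it, and the oviduct, lined by ciliated and secretory cells, opens beside it. The uterus has a simple columnar epithelium with glands, whose secretory genes respond to oestrogen, over a stroma and a muscle wall.

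The marker genes went against both tissue labels. Hsd3b1, which makes progesterone from pregnenolone, read 40566 on the SHT-BC array and 51780.0 on the Mock-Uterus array, and at most 101 on the other 4. Inha, the inhibin alpha subunit of granulosa cells, read 19107 and 29563 in the same order, with 629 its highest value elsewhere. Both genes were thus high on both arrays. Snap25, of the synaptic fusion machinery, read 209.8 and 768 there against 58204 on the Mock-BC array. Neither the labelled brain nor the labelled uterus was therefore borne out by these genes, and a difference below is one between arrays named by their titles, assigned neither to a tissue nor to the treatment. Because a whole tissue was hybridised, fewer cells of a type and less RNA per cell cannot be told apart.

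Median intensities over the 26423 probes lay between 179 and 224 on the 6 arrays, and were 185 on the SHT-BC array and 207 on the Mock-Uterus array. The background level of an array was set at the 95th percentile of 529 olfactory receptor genes, which was 275 on the first of these and 295 on the second. Intensities are in the deposited linear unit. Differences are on the log2 scale, SHT-BC minus Mock-Uterus, after each array was centred on its median. A gene was compared if it was above background on at least 1 of both arrays, and a gene dim on 1 array took that array's background level in its fold, which is then a lower bound and written "at least". A gene called higher or lower differed by 2-fold or more under that rule.

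Of 10154 genes compared, 453 were at least 2-fold higher on the SHT-BC array (4.46%) and 141 were at least 2-fold lower (1.39%), together 5.85%. The higher genes made up 76.3% of the calls. That share was 52.7% with no centring, 87.6% after a lowess trend was removed and 86.9% with the pair centred on its median gene above background, so the excess of higher calls depended on the centring. The median gene compared lay at -0.13 and the interquartile range ran from -0.38 to 0.13, against which the list medians below are to be read, and 63.6% of the genes compared lay below 0. Large differences ran mostly one way: 146 of the 453 higher genes were at least 4-fold higher, against 9 of the 141 lower genes. Col6a2, at 1.0006, lay just inside the limit of 1 on the log2 scale, and Nr5a2, at -0.9990, just outside it.

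The pair stood between the study's other 2 pairs of like profile. On the SHT-Ovary and Mock-BC arrays, both with a brain profile, 3 of 8538 genes were called (0.0351%). On the SHT-Uterus and Mock-Ovary arrays, here called uterus-profile, 974 of 10074 were called (9.67%). That name is a label and not a settled tissue. Of 14 markers of uterine stroma and glands, 4 were above background on the Mock-Ovary array and 6 on the SHT-Uterus array. Of 16 oestrogen-responsive uterine genes, 15 and 16 were, and of 16 keratin and squamous genes all were on both. Over genes above background on both arrays of a pair, the standard deviation of the log2 difference was 0.57 for the SHT-BC and Mock-Uterus arrays, 0.19 for the brain-profile pair and 0.65 for the uterus-profile pair.

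**Figure D1:**
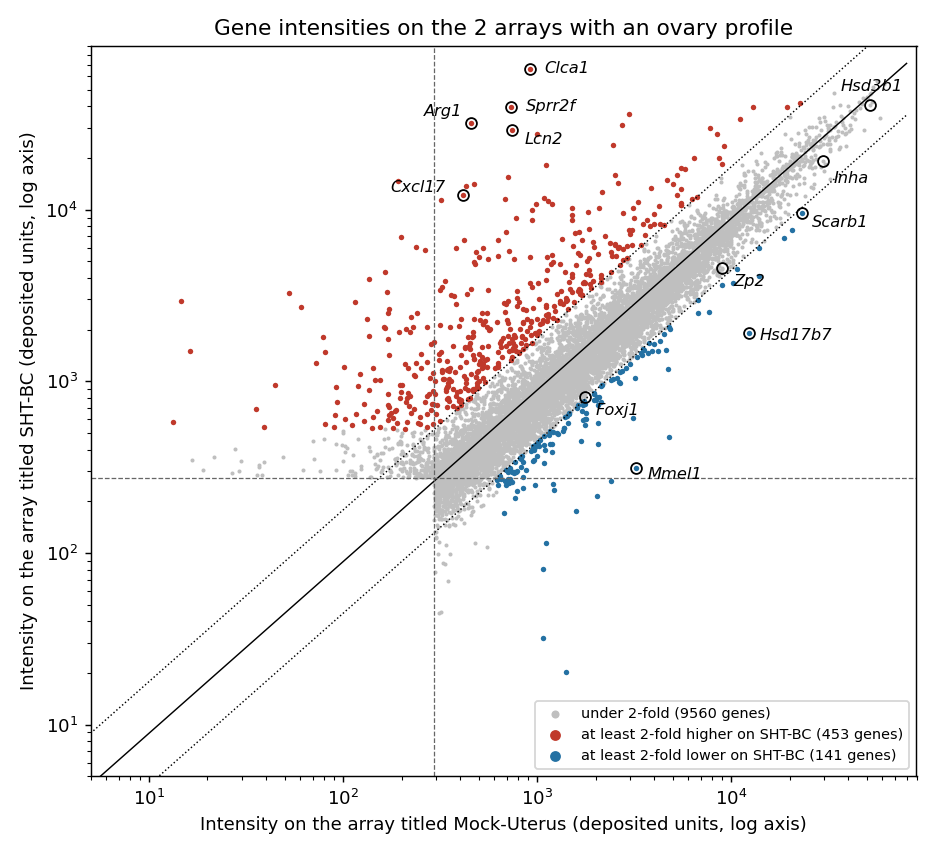
Intensity of each of 10154 genes on the SHT-BC array (vertical) against the Mock-Uterus array (horizontal), both in deposited units on log axes. The solid line marks equal values after centring, the dotted lines 2-fold, and the dashed lines each array's background level; the 453 higher genes (red) spread far above the upper dotted line, while most of the 141 lower genes (blue) lie close to the lower one.

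With dim genes taken at the background level, the 15 largest differences were all higher on the SHT-BC array. As read, some lower genes differed by more than Elf3 (4.25) of these 15, such as Bhmt (-5.94) and Sstr1 (-4.91), both below background on the SHT-BC array. Clca1, a secreted regulator of mucus and chloride transport, read 65723 on the SHT-BC array, at the top of the intensity scale, and 917 on the Mock-Uterus array, a difference of at least 80.6-fold. Arg1, which splits arginine to ornithine and urea, read 31920.0 and 456, a 78.7-fold difference. Lcn2, an antimicrobial protein that binds bacterial iron carriers, read 29127 and 742 (44.1-fold). These genes were bright on the SHT-BC array and dim, though above background, on the Mock-Uterus array.

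Others of the 15 largest increases included cornified-envelope precursors, protease inhibitors and mucosal defence genes. Sprr2f, a small proline-rich cornified-envelope protein, read 39531 against 733 (60.6-fold), and its neighbour in the family Sprr2g read 6078 against 238 (at least 23.1-fold). Genes of that family are close in sequence, and whether their probes tell them apart is not known here. Spink12, a Kazal-type serine protease inhibitor, read 14628 against 192 (at least 55.7-fold). Fcgbp, a mucus protein that binds the Fc part of IgG, read 14185 against 472 (33.7-fold). Cxcl17, a chemokine of mucosal surfaces, was 32.9-fold higher, and Elf3, an epithelial transcription factor, 19-fold. The enzymes Padi1 and Padi2, which turn arginine in proteins into citrulline, read 27502 and 11434 on the SHT-BC array and 1001 and 318 on the Mock-Uterus array. Car2, a carbonic anhydrase, was 24.5-fold higher, Gjb2, a gap junction connexin of epithelia, at least 22.1-fold, Sfn, stratifin, 35.8-fold, and Unc5cl, named for its likeness to a netrin receptor, at least 26.5-fold.

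The 4 other arrays divided these genes. Arg1 read 39175 and 40356 on the Mock-Ovary and SHT-Uterus arrays, those called uterus-profile, and at most 34.6 on the brain-profile arrays. Its level on the SHT-BC array was thus near that of the uterus-profile arrays. Sprr2f read 21342 and 53527 on the uterus-profile arrays, and Lcn2 1817 and 27698. Clca1, with 17905 and 4919.6 there, was brightest on the SHT-BC array. Padi2 read between 263 and 823 on all 4, and Unc5cl at most 122, so that neither matched the SHT-BC array on any other array. Fcgbp, at 1239.6 and 1541, and Cxcl17, at 631 and 2303, lay in between.

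Over all 453 higher genes, the median intensity was 2134 on the SHT-BC array and 558 on the Mock-Uterus array, with 1346 and 2067 on the uterus-profile arrays and 277 and 251 on those with a brain profile. Of them, 380 (83.9%) were above background on both uterus-profile arrays, near the 83.0% of all genes compared, and 156 (34.4%) on both brain-profile arrays, against 69.4% of all genes compared. At least 1 uterus-profile array reached or passed the centred level of the SHT-BC array for 194 of the 453 (42.8%). A further 98 (21.6%) were at least 2-fold higher on the SHT-BC array than on each of the other 5, of which the Mock-Uterus array was met by the call itself. Neither share was taken over all genes compared, so neither shows a trait particular to the higher genes. Of 14 markers of uterine stroma and glands on the array, 6 were compared, and Hoxa10, Hoxa11, Wnt7a and Esr1 were the 4 called higher. The 14 summed to 9895 on the SHT-BC array, with Esr1 the largest part, and to 5272 on the Mock-Uterus array. They summed to 13710.1 and 25164 on the uterus-profile arrays, where only 4 and 6 of them were above background. The part of these markers in the result was not tested.

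**Figure D2:**
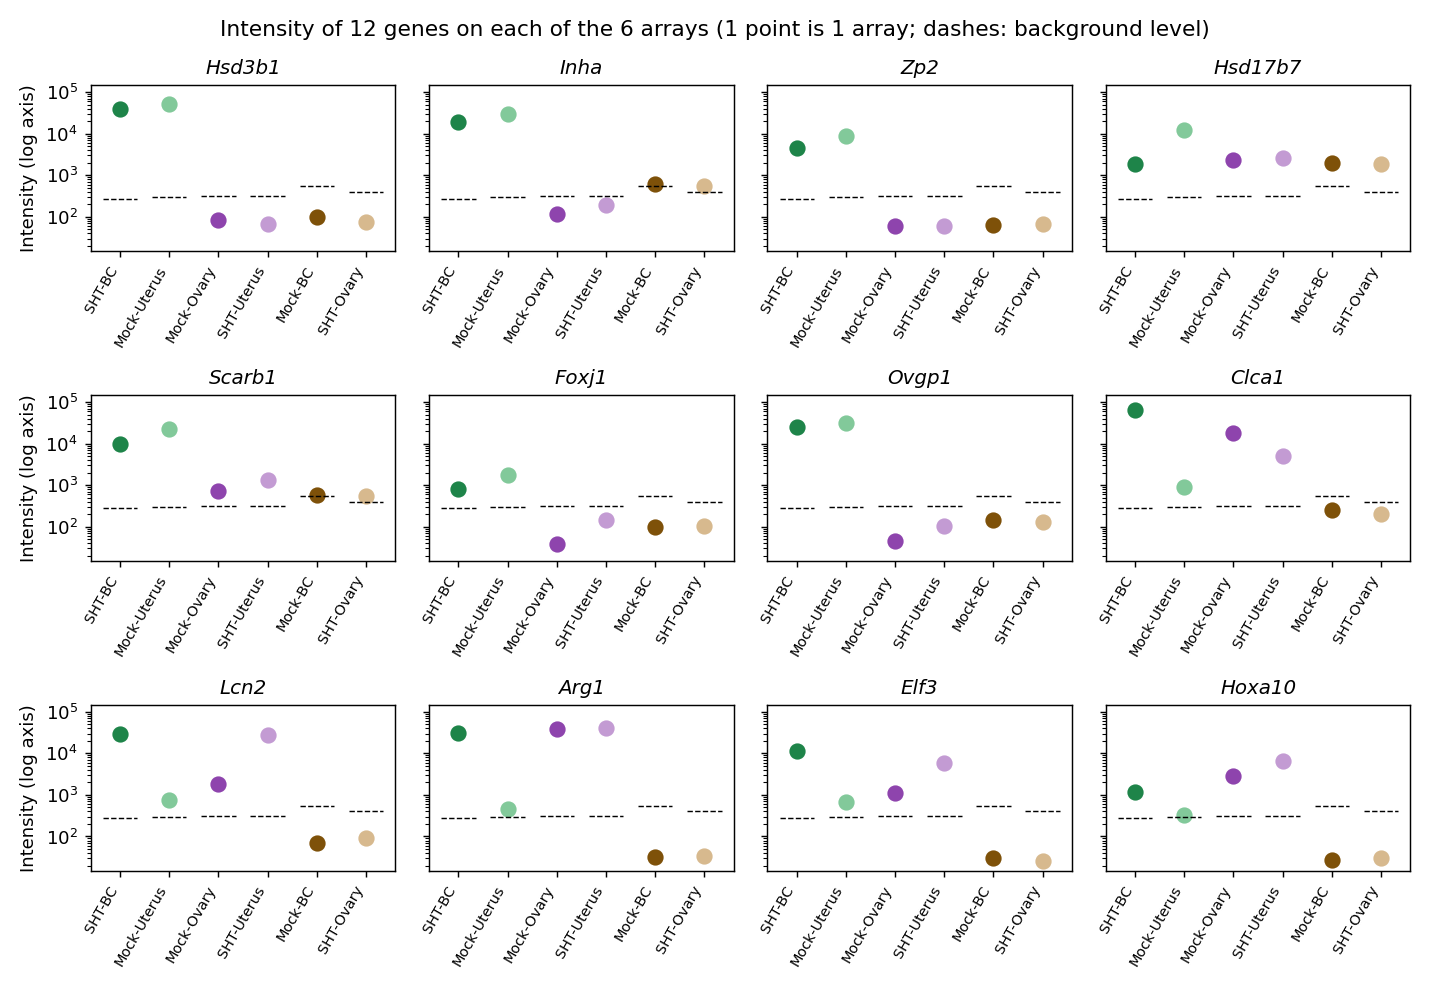
Intensity of selected genes (log axis) on each of the 6 arrays, 1 point per array, with a dash at each array's background level. Hsd3b1, Inha, Zp2, Foxj1 and Ovgp1 are highest on the SHT-BC and Mock-Uterus arrays, whereas Clca1, Lcn2, Arg1, Elf3 and Hoxa10 are low on the Mock-Uterus array and high on the SHT-BC array and at least 1 uterus-profile array.

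Promoter sequences of 4 genes are shown: the marker Lcn2, the cornified-envelope gene Sprr2f and the chemokine gene Cxcl1, all higher, and the steroid enzyme gene Hsd17b7, which was lower. Each runs 5′ to 3′ from 250 bases before the annotated start to 50 after it, from the RefSeq table of GRCm38.p6. The capitals mark a match to the NF-kB motif, taken as the consensus of that name, or to the letters of the TATA box, TATAAA. Both were searched on both strands over the whole window, so a match to TATAAA is not by itself a TATA box. Both motifs were added after the values were seen.
Lcn2 (chr2:32387690-32387989, minus strand): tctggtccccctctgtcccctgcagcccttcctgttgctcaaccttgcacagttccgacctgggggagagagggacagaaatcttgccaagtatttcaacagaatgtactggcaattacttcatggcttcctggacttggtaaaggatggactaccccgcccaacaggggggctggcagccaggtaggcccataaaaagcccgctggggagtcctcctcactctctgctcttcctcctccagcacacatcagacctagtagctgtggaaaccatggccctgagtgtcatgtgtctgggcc
Sprr2f (chr3:92364937-92365236, plus strand): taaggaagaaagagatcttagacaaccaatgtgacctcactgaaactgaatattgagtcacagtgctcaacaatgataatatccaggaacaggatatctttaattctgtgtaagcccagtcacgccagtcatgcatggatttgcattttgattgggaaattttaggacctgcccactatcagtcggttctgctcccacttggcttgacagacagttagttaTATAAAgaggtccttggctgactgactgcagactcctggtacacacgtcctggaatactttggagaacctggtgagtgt
Cxcl1 (chr5:90890995-90891294, plus strand): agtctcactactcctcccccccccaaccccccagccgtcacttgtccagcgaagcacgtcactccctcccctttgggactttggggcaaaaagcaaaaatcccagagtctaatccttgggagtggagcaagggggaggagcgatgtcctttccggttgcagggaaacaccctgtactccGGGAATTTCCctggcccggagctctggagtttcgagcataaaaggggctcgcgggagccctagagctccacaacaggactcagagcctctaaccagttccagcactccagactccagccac
Hsd17b7 (chr1:169969156-169969455, minus strand): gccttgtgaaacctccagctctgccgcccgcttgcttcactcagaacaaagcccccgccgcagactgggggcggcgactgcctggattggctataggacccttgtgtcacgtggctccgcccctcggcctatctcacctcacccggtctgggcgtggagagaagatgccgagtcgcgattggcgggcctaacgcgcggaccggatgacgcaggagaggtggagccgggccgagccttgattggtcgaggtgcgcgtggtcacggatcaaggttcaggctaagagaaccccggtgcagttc
The Cxcl1 promoter held the NF-kB motif with its first base 71 bases before the start, and that of Sprr2f held a TATA box. None of the motifs searched was found in the windows of Lcn2 and Hsd17b7. The NF-kB motif was in 8.23% of the 328 higher genes with a promoter in the table, 5.45% of the 110 lower genes and 6.42% of the 8183 genes compared. The letters TATAAA, on either strand and anywhere in the window, were in 15.9%, 8.18% and 9.19% of the same groups. Of the other motifs searched, the oestrogen response element (by its name) was in 0 of each group. The steroidogenic factor 1 site TCAAGGTCA was in 0.305% of the higher genes, 0.909% of the lower genes and 0.318% of the genes compared, and the C/EBP-like site TTGCGCAA in 0.305%, 0.909% and 0.33%. The RFX site GTTGCCATG was in 0.61%, 2.73% and 0.77%, and the share of the lower genes rests on 3 of 110. Of all 27025 promoters in the table, 5.14% held the NF-kB motif, 15.7% the letters TATAAA on either strand and 0.074% the oestrogen response element. The steroidogenic factor 1 site was in 0.466% of them, the RFX site in 0.877% and the C/EBP-like site in 0.207%. These are descriptions of letters in a short window and not of bound sites.

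Genes of simple epithelium were higher on the SHT-BC array. Of the 14 members compared, 13 were higher and 0 lower, with a median of 2.13 (1.96 with dim members at their bound). Epcam, the epithelial adhesion molecule, read 17496 on the SHT-BC array and 5509 on the Mock-Uterus array (3.57-fold). Cdh1, E-cadherin, read 13364 and 3842 (3.91-fold), and the keratin gene Krt7 31008 and 2726 (12.8-fold). The tight junction protein Cldn7 differed by 12.9-fold and the membrane protease St14 by 9.56-fold. Ehf, an epithelial transcription factor, was the exception at 1897 and 1929.8 (0.14), although it read 8161 and 9174 on the uterus-profile arrays.

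Of the mucosal secretory genes, 8 of 10 were higher and 0 lower, with a median of 3.79 (2.61 at the bounds). That median was 2.69 with the mean or the dimmest of a gene's probes and 2.83 after a lowess trend was removed. Muc1 and Muc4, membrane mucins, read 4331 and 1509 on the SHT-BC array and, below background, 165 and 16.2 on the Mock-Uterus array, differences of at least 16.5-fold and at least 5.75-fold. Wfdc2, a secreted protease inhibitor of the genital tract, was 6.46-fold higher. Agr2, a disulfide isomerase needed for mucin folding, was 2.26-fold higher, and Ltf, the iron-binding lactoferrin, 2.08-fold. Slpi, another secreted protease inhibitor, ran the other way within 2-fold, at 463 and 653 (-0.33). The list thus covered a range from -0.33 to 6.71 as read.

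The oestrogen-responsive uterine list shares Clca1, Lcn2, Muc1 and Ltf with it, and 10 of its 15 members were higher. The 5 not called included genes bright on both arrays. C3, the central complement protein, read 34882 and 20084 (0.96), and Igf1 1144 and 993 (0.37). Greb1, an oestrogen receptor cofactor, read 4896 on the SHT-BC array and 9398 on the Mock-Uterus array (-0.77), against the direction of its list. Sprr2d, at 515 and 100.2, was held just under 2-fold by the background level.

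Keratin and squamous genes were read only in part. Of 16 on the array, 6 were above background on either array, and 2 of these were higher: Sfn, above, and Perp, a desmosome-associated protein, at 4424 and 1119 (4.44-fold). Krt14, a basal keratin, read 600.1 and 639 (0.08) against 65579.8 and 64964 on the uterus-profile arrays. The whole list summed to 22875 on the SHT-BC array and 5727 on the Mock-Uterus array, and to 572386 and 410159 on the uterus-profile arrays.

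**Figure D3:**
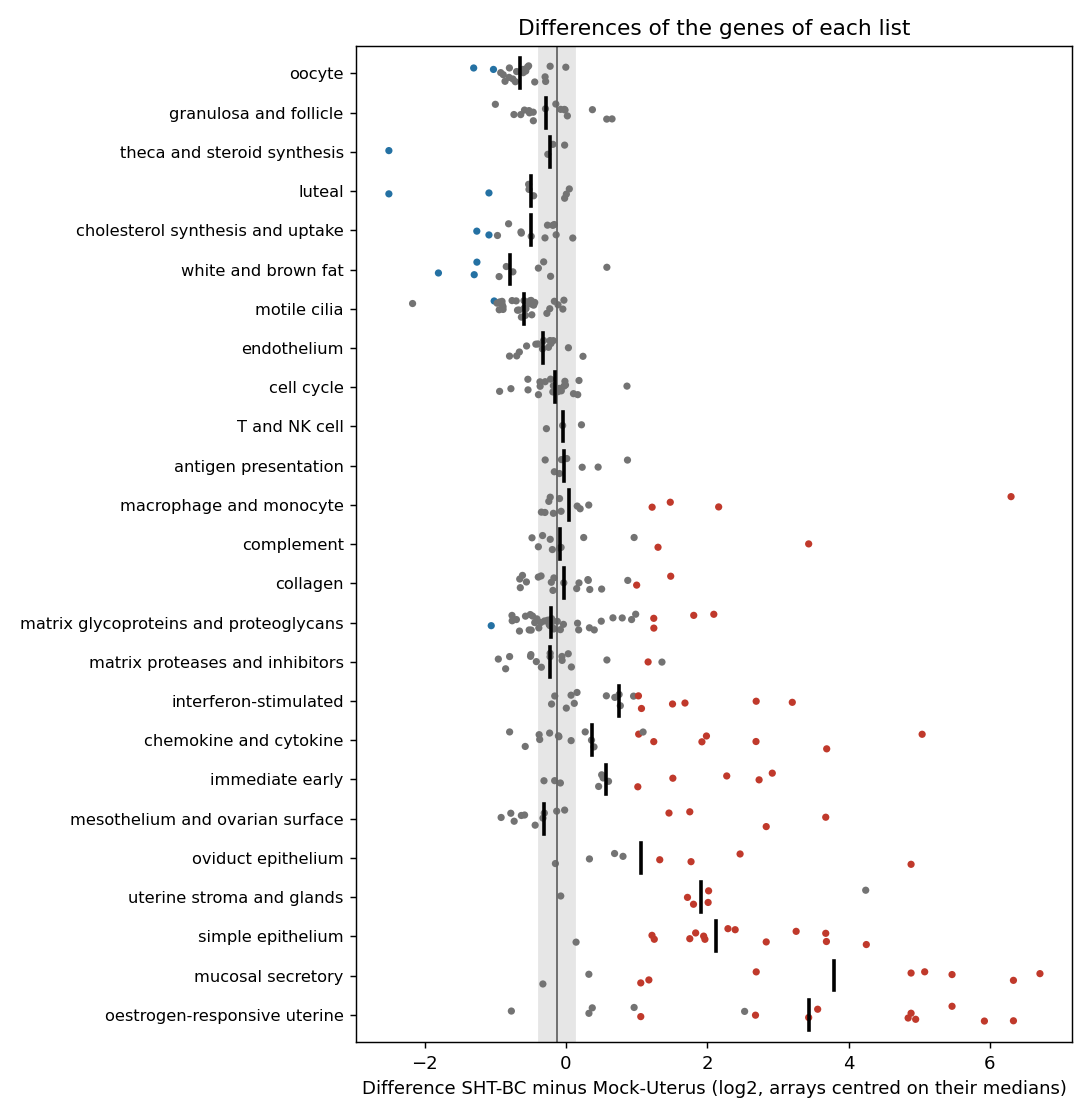
Log2 difference (SHT-BC minus Mock-Uterus) of every compared member of the gene lists named on the left, 1 point per gene, red for genes called higher and blue for genes called lower, with a black bar at each list's median as read. The vertical line is the median of all 10154 genes (-0.13) and the grey band their interquartile range (-0.38 to 0.13); the epithelial and secretory lists at the bottom lie to the right of it and the oocyte, fat and cilia lists to its left.

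Follicle genes stayed within 2-fold, as did most genes compared, of which 5.85% were called. Of 17 granulosa and follicle genes compared, 0 were higher and 0 lower, with a median of -0.29, and 10 of the 17 lay below the median of all genes compared. Foxl2, the transcription factor that keeps granulosa identity, read 12312 on the SHT-BC array and 21556 on the Mock-Uterus array (-0.64). Amhr2, the receptor for anti-Müllerian hormone, read 3199 and 5166 (-0.52). The difference in Inha was -0.46. Nr5a2, a nuclear receptor needed for ovulation and luteal function, had the lowest difference of the list, at 1327 and 2981 (-0.9990).

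Genes of hormone synthesis and feedback in the follicle also stayed within 2-fold. Hsd17b1, which makes oestradiol in granulosa cells, read 16769 and 19134 (-0.02). Inhba and Inhbb, the activin and inhibin beta subunits, read 1132 and 8751 on the SHT-BC array and 853 and 7586 on the Mock-Uterus array, differences of 0.58 and 0.37. Fst, follistatin, which binds activin, lay at -0.59. Fshr, the follicle-stimulating hormone receptor, was dim on both, at 449 and 557.

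All 20 oocyte genes compared lay below 0, with a median of -0.65, and 2 of them were called lower. Of the egg coat genes, Zp2 read 4579 on the SHT-BC array and 8992 on the Mock-Uterus array (-0.81), Zp3 1641 and 3352 (-0.86), and Zp1 795 and 1325 (-0.57). Gdf9, the oocyte's growth factor for granulosa cells, read 5619.7 and 10369.9 (-0.72). Its partner Bmp15 was called lower at 348 and 966 (2.47-fold), as was Npm2, a nuclear chaperone of the egg, at 697 and 1595 (2.04-fold). Figla, the transcription factor that turns on the egg coat genes, differed by -0.22, and Kit, which other cells of the ovary also express, by -0.00. Of the 20, 19 lay below the median of all genes compared.

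Of 11 genes of the ovulation cascade, 2 were higher and 0 lower. Pgr, the progesterone receptor, read 4452 on the SHT-BC array and 1844 on the Mock-Uterus array (2.71-fold), and its target Adamts1, a protease of the expanding cumulus matrix, 2251 and 1130.0 (2.24-fold). Both genes were brighter still on the uterus-profile arrays, where Pgr read 19510.1 and 13506 and Adamts1 7747 and 7542. Vcan, the proteoglycan that Adamts1 cleaves, lay at -0.76, and Runx1, which is induced before ovulation, at -0.68, where a second probe lay at -1.04. The median of the list, 0.15, was -0.01 with no centring.

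Of 8 luteal genes compared, 2 were lower, 0 were higher and 6 lay below 0, with a median of -0.49. Only 5 of the 8 lay below the median of all genes compared. The luteal median rose to -0.28 when probes for the same gene were averaged. Star, which carries cholesterol into mitochondria, read 9160.0 on the SHT-BC array and 10428 on the Mock-Uterus array (-0.02), while its second probe above background lay at -0.45, and Hsd3b1 differed by -0.18. Akr1c18, which inactivates progesterone in regressing corpora lutea, read 44639.8 and 49969.8 (0.01), and Ptgfr, the receptor for the prostaglandin that triggers that regression, 1766 and 2852 (-0.52). The 2 lower genes were Hsd17b7 and Scarb1. Hsd17b7 read 1923 and 12272, a 5.68-fold decrease. This enzyme, whose promoter is printed above, makes oestradiol in the corpus luteum and also acts in cholesterol synthesis. Its level on the SHT-BC array lay within the range of the 4 other arrays, 1907 to 2567, and the Mock-Uterus array alone was high. Scarb1, the lipoprotein receptor that takes up cholesterol for steroid synthesis, was also lower, at 9625 and 23019 (2.13-fold), and was high on both arrays against at most 1299 elsewhere.

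Genes of cholesterol synthesis and uptake lay mostly below 0, 12 of 13, with a median of -0.49. The 2 called lower were Scarb1 and Dhcr7, a late enzyme of cholesterol synthesis, at 985 and 2654 (2.4-fold). Soat1, which esterifies cholesterol for storage, read 1577 and 3469 (-0.97), and Lss, lanosterol synthase, 910.1 and 1795 (-0.81). Sqle, squalene epoxidase, and Srebf2, the regulator of the pathway, differed by -0.17 and 0.10. Among the apolipoproteins, Apoc1 was lower (2.23-fold), the single call among 8 genes compared, and Apoe read 14202 and 22407 (-0.49).

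Fat genes lay mostly below 0. Of 10 compared, 3 were lower, 0 were higher and 9 lay below 0, with a median of -0.80. Plin4, a coat protein of lipid droplets, read 6803 on the SHT-BC array and 18797 on the Mock-Uterus array (2.46-fold), Thrsp, which promotes lipid synthesis, 2507 and 6745 (2.39-fold), and Lep, the hormone leptin, 172 and 675 (at least 2.18-fold). Adipoq, adiponectin, read 8371 and 18117 (-0.95), just short of the limit. Fabp4, a fatty acid carrier of fat cells and endothelium, differed less, by -0.32, and Pck1, an enzyme of glucose and glycerol synthesis, was the member above 0 (0.58). Hao2, an oxidase of hydroxy acids, was the 1 lower gene of 10 detoxification genes, at 7596 and 20505 (2.4-fold).

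Motile cilia genes lay below 0 on the centred scale but seldom by 2-fold. Of 31 compared, 1 was lower and 0 higher, and the median was -0.59 (-0.51 at the bounds). Foxj1, the master regulator of motile cilia, read 815 on the SHT-BC array and 1762 on the Mock-Uterus array (-0.94). Rsph1, of the radial spoke, read 1339 and 2788 (-0.89), and Dnah5, a dynein heavy chain, 505 and 1051 (-0.89). Dnaic2, a dynein intermediate chain, was the member called lower, at 359.8 and 818 (2.02-fold). Tppp3, also expressed outside ciliated cells, lay at -0.11. Of the 31, 28 lay below the median of all genes compared. Foxj1 read at most 145 on the 4 other arrays. The list, 43 genes on the array, summed to 42894 on the SHT-BC array and 67025 on the Mock-Uterus array.

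The other oviduct genes did not follow the cilia genes. Ovgp1, the glycoprotein secreted by oviduct epithelium, read 25536 on the SHT-BC array and 31822 on the Mock-Uterus array (-0.15), and at most 146 elsewhere. Of the 8 genes of the list, 4 were higher and 0 lower. Pax8, a Müllerian transcription factor, read 2939 and 1316 (2.51-fold), and Prom1, a protein of membrane protrusions, 10212 and 2079.8 (5.52-fold). Another Prom1 probe above background differed by 0.37 and a further one by 2.66, so its probes disagreed in size. Muc1 and Cd24a, also called here, are widely expressed in epithelia.

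Of 14 genes of mesothelium and ovarian surface compared, 4 were higher and 0 lower, with a median of -0.32. Those higher were Krt7, Krt8 and Krt19, keratins of simple epithelia, and Aldh1a2, which makes retinoic acid and is also expressed in stroma, at 2702 and 1105 (2.75-fold). The more restricted markers lay below 0. Upk3b read 5207 on the SHT-BC array and 7915 on the Mock-Uterus array (-0.44), Msln, mesothelin, 1599.7 and 2784 (-0.63), and Muc16, a membrane mucin, 347 and 737 (-0.92). Wt1, a transcription factor of mesothelium and granulosa cells, lay at -0.31.

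Among markers of uterine stroma and glands, the homeobox genes Hoxa10 and Hoxa11 read 1163 and 678 on the SHT-BC array and 324 and 188 on the Mock-Uterus array, differences of 4.03-fold and at least 2.58-fold. Both were brighter on the uterus-profile arrays, where Hoxa10 reached 6642. Wnt7a, a ligand of the luminal epithelium, was at least 2.49-fold higher. Esr1, the oestrogen receptor alpha, read 4327 and 1391 (3.49-fold), while Esr2, the beta receptor of granulosa cells, read 2316 and 2741 (-0.07). Of 12 hormone receptors compared, Esr1 and Pgr were the 2 called higher, and 0 were lower. Oxtr, the oxytocin receptor, lay at -0.82 and Ghr, the growth hormone receptor, at -0.74.

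The macrophage and monocyte list had 4 higher and 0 lower of 14, with a median of 0.05 whose sign changed with no centring (-0.12). The 10 not called included C1qa, a complement chain that macrophages secrete, which read 11152 on the SHT-BC array and 14621 on the Mock-Uterus array (-0.22), and Csf1r, a growth factor receptor of these cells, at 1069.5 and 1529 (-0.35). Those higher were Arg1, Itgam, an integrin of myeloid cells (at least 3.26-fold), Cd14, a co-receptor for bacterial lipopolysaccharide, at 7604 and 3071 (2.78-fold), and Cd68, a lysosomal glycoprotein (2.33-fold). Arg1 is also made by epithelial cells, and the files do not tell which cell it came from.

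T and NK cell genes were mostly under background, with 3 of 17 on the array compared and 0 called, and Cd3e, a chain of the T cell receptor complex, read 2394 and 3259 (-0.28). Of 5 B and plasma cell genes compared, 2 were higher: Jchain, which joins polymeric IgA and IgM, at 1277 and 237 (at least 4.86-fold), and Cd79b, of the B cell receptor, at 848 and 299 (3.19-fold). Of 5 neutrophil genes compared, of 13 on the array, 2 were higher and 1 lower. Retnlg, a resistin-like protein, was 2.97-fold higher and Ltf, which epithelia also secrete, 2.08-fold. S100a9, a calcium-binding protein abundant in neutrophils, was lower at 367 and 992 (2.41-fold), and Il1b, an inflammatory cytokine, lay at -0.80. Of 8 antigen presentation genes 0 were called, with H2-Aa, a class II chain, at 10346 and 12147 (-0.06).

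Chemokine and interferon genes included more calls. Of 19 chemokine and cytokine genes compared, 7 were higher and 0 lower, with a median of 0.36. Beside Cxcl17, the eosinophil attractant Ccl11 read 3859.9 on the SHT-BC array and 336 on the Mock-Uterus array (12.9-fold), the monocyte attractant Ccl2 1387 and 659 (2.37-fold), and the neutrophil attractant Cxcl1 1338 and 737 (2.04-fold). Il1a, an alarm cytokine of epithelia, was at least 2.81-fold higher, and Ccl28, which draws IgA plasma cells to mucosae, at least 2.08-fold. Cxcl12, a stromal chemokine, was near equal (-0.10). Ccl11 was brightest on the uterus-profile arrays, at 36393 and 13352, whereas Cxcl17 was brightest on the SHT-BC array.

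Of 17 interferon-stimulated genes compared, 6 were higher, 0 were lower and 15 lay above 0, with a median of 0.75. Irf7, which amplifies interferon production, read 3218 on the SHT-BC array and 1271 on the Mock-Uterus array (2.84-fold), and Isg15, a ubiquitin-like modifier, 1599.9 and 559 (3.21-fold). Oas2 and Oasl1, of the family that senses double-stranded RNA, were at least 5.51-fold and at least 5.39-fold higher. Ifit1 (2.1-fold) and Ifi47, a GTPase (2.04-fold), were near the limit. Bst2, which tethers virus particles, was bright on both arrays and lay at -0.20.

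The complement list had 2 higher and 0 lower of 11. Cfb, factor B of the alternative pathway, read 23703 on the SHT-BC array and 2463 on the Mock-Uterus array (10.8-fold), and Cd55, which protects host cells from complement, 882 and 402 (2.47-fold). Serping1, the C1 inhibitor, and C2 lay at -0.19 and -0.48.

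**Figure D4:**
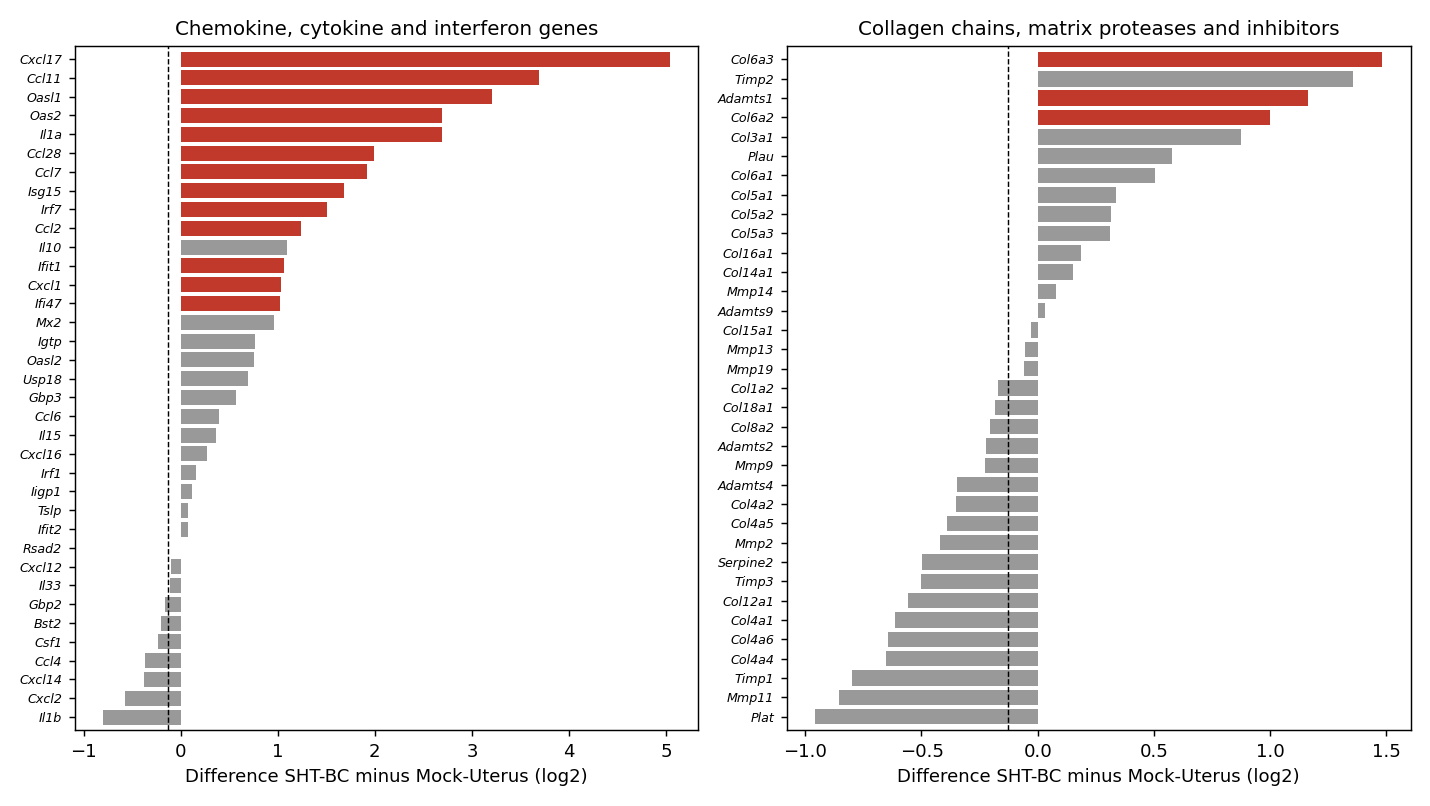
Log2 difference (SHT-BC minus Mock-Uterus) of each compared gene of the chemokine, cytokine and interferon lists (left) and of the collagen, matrix protease and inhibitor lists (right), as read, 1 bar per gene and 1 array a side. Red bars are genes called higher, grey bars genes not called, and the dashed line is the median of all genes compared (-0.13); a grey bar past 1 is a gene dim on the Mock-Uterus array, such as Il10 and Timp2, whose bound falls short of 2-fold.

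Most matrix genes stayed within 2-fold, as did most genes compared, of which 4.46% were called higher and 1.39% lower. Of 19 collagen chains compared, 2 were higher and 0 lower. Col6a3, of the microfibril collagen VI, read 10526 on the SHT-BC array and 4233 on the Mock-Uterus array (2.79-fold), and Col6a2 3804 and 2136 (2-fold). Col3a1, a fibrillar chain, lay at 0.87. The basement-membrane chains Col4a1 and Col4a2 read 9701 and 15620.0 on the SHT-BC array and 16697 and 22407 on the Mock-Uterus array, differences of -0.62 and -0.35, and the other 3 collagen IV chains compared lay between -0.65 and -0.39. The median of the list, -0.03, changed sign with the centring, from -0.20 with none to 0.14 after a lowess trend was removed.

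Of 38 matrix glycoproteins and proteoglycans compared, 4 were higher and 1 lower, with a median of -0.21. Fbln2, an elastic fibre protein, read 3557 on the SHT-BC array and 937 on the Mock-Uterus array (4.26-fold), and Lox, which crosslinks collagen and elastin, 1031 and 331 (3.5-fold). Postn, periostin, and Dpt, dermatopontin, were 2.37-fold and 2.37-fold higher. Hspg2, the basement-membrane proteoglycan perlecan, was lower, at 1021 and 2389 (2.08-fold), and the basement-membrane genes Nid1, Nid2 and Lamc1 lay at -0.52, -0.57 and -0.70. In deposited intensity the 4 higher genes were all brighter on both uterus-profile arrays than on the SHT-BC array, with Lox at 6788 and 6898 and Postn at 15772 and 17143.

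Of 16 matrix proteases and inhibitors, Adamts1 was the 1 called higher and 0 were lower. Timp1, an inhibitor of metalloproteinases, read 7523 on the SHT-BC array and 14692 on the Mock-Uterus array (-0.80), and Plat, tissue plasminogen activator, 4665 and 10176 (-0.96). Mmp2, a gelatinase of stroma, lay at -0.42, and Mmp14, which activates it, at 0.08. Of 9 fibroblast genes 0 were called, and Dcn, decorin, read 40931 and 36531 (0.33). Desmin, encoded by Des, was the 1 of 4 smooth muscle genes called higher, at 2175 and 711 (3.44-fold), while Acta2, smooth muscle actin, lay at 0.07, where a second probe differed by 1.33.

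Vessel, cycle and growth factor genes gave few calls. Of 14 endothelial genes, 0 were called and 12 lay below 0 (median -0.32), with Cdh5, the endothelial cadherin, at -0.66. Of 22 cell cycle genes 0 were called, and Mki67 and Top2a lay at -0.39 and -0.01. A second Mki67 probe, near background on both arrays, lay at 0.28. The 3 D-type cyclins ran apart, with Ccnd1 at 0.86, Ccnd2, the cyclin of proliferating granulosa cells, at -0.94 and Ccnd3 at -0.11. Of 11 insulin-like growth factor genes, Igfbp2, a binding protein, was the 1 called lower (2.27-fold).

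Immediate early genes, which cells switch on within minutes of a stimulus, were higher in part: 5 of 12, with 0 lower and a median of 0.56. Fos read 10174 on the SHT-BC array and 1511 on the Mock-Uterus array (7.57-fold), Ier3 12729 and 2151 (6.65-fold), and Junb 3350.0 and 1319 (2.85-fold). Egr1 and Dusp1, of the same response, lay at 0.46 and -0.31. Egln3, an oxygen-sensing prolyl hydroxylase, was the 1 of 8 hypoxia genes called higher, at 5137 and 558 (10.3-fold), while Vegfa and Pfkfb3 lay at -0.79 and -0.80. Of 12 heat shock and unfolded protein genes Hspa1b was called higher (2.37-fold) and 0 were lower. It is nearly identical to Hspa1a, which lay at 0.57, so their probes may share signal. Of 7 housekeeping genes 0 were called, and they ran from -0.30 for Tbp to 0.89 for Tfrc, with Actb at 0.03.

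With dim genes taken at the background level, the largest decreases were smaller than the largest increases, and of mixed function. Mmel1, a membrane metallopeptidase, read 313 on the SHT-BC array and 3242 on the Mock-Uterus array (9.23-fold), and Lrrn1, a leucine-rich neuronal protein, 477 and 4805 (8.97-fold). Parvb, an adhesion protein that binds integrin-linked kinase, was at least 7.79-fold lower, Ssu2 at least 6.6-fold and Slc12a8, of the cation and chloride cotransporter family, at least 5.11-fold. Bhmt, which makes methionine from homocysteine and betaine, read 1408 on the Mock-Uterus array and at most 26.8 on the 5 others, all below background. Kdm2a, a histone demethylase, was 4.52-fold lower, Plin5, a lipid droplet protein of oxidative cells, 4.24-fold, and Cutal 3.58-fold. Cemip, which degrades hyaluronan, was at least 3.61-fold lower, a call lost with the background level at the 99th percentile (-0.79).

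Several of these genes are best known from nervous tissue. Ptgds, prostaglandin D synthase, read 253 on the SHT-BC array and 1201 on the Mock-Uterus array (at least 3.89-fold) and 22834 and 23269.9 on the brain-profile arrays. Cplx1, a regulator of synaptic vesicle fusion, read 81.1 and 1076 (at least 3.48-fold) against 29228 and 30019.7 there. Jakmip3 (at least 3.96-fold) and Sstr1, a somatostatin receptor (at least 3.49-fold), were also above background on both brain-profile arrays. With the background level raised to the 99th percentile, none of these 4 was called, at -0.90 for Ptgds, -0.74 for Cplx1, -0.92 for Jakmip3 and -0.74 for Sstr1. Jakmip3 lay at 0 with the mean or the dimmest of its probes. Of 4 neuronal and glial genes compared, Snap25 was lower (at least 2.49-fold), but Mbp, a myelin protein, had probes that ran opposite ways, at -1.77 and 1.29. The 11 genes of that list on the array summed to 12448 on the SHT-BC array, 20651 on the Mock-Uterus array and 237273 and 245585 on the brain-profile arrays, and their part in the lower genes was not tested.

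Over all 141 lower genes, the median intensity was 509 on the SHT-BC array and 1443 on the Mock-Uterus array, with 296 and 487 on the uterus-profile arrays and 577 and 530 on those with a brain profile. Of them, 51 (36.2%) were under background on both uterus-profile arrays, against 8.64% of all genes compared. At least 2-fold higher on the Mock-Uterus array than on each of the other 5 were 50 of the 141 (35.5%). The difference from the SHT-BC array was set by the call, and this share was not taken over all genes compared. Above background on both brain-profile arrays were 70 of the 141 (49.6%), a smaller share than the 69.4% of all genes compared. Among the higher genes, 33 had a second probe above background, and for 31 all such probes had the same sign. For the lower genes this held for 5 of 6. All such probes differed by 2-fold or more for 25 of the 33 higher genes and 2 of the 6 lower genes.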

How the data were processed

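The values were those of the deposited table of processed intensity, 26423 probes on each of 6 arrays. The submitters' processing notes name limma for the authors' steps, without version or role. No source used here gives the background correction or scaling. Each deposited intensity was raised to each array's 5th percentile of positive values, put on the log2 scale and centred on the array's median. Of the probes, 20377 carried 1 gene symbol (18213 matched a RefSeq GRCm38.p6 symbol, 2126 a synonym, 38 were kept as given) and 6046 none. A gene with several probes was read from the probe of highest mean over all arrays, which gave 17742 genes. A spot at 65000 or more was at the top of the scale, and its fold is a lower bound.

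Groups followed the labels, and the 2 arrays were chosen by their ovary markers. With 1 array a side there was no test, and precision is limited by that number. The comparison, the 42 gene lists and the background level were chosen with earlier results of these data known, so list counts and medians are descriptions. Named genes were the 15 largest bounded differences each way without placeholder symbols, the markers Hsd3b1, Inha, Clca1 and Lcn2, and, from each list, members with the largest differences, defining markers and members that ran against it. The calling was run on simulated data with the spread of the brain-profile pair, which is smaller than that of the pair compared. Differences were planted only beyond the 2-fold limit and in genes bright on the Mock-Uterus array. That run therefore does not show how calls near the limit or of dim genes fare at the pair's own spread. Alternatives varied centring, probe choice, floor, background level, call rule and fold limit. Python 3.11.15, pandas 2.3.3 and numpy 2.4.6 were used.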

Additional observations from a re-analysis of the deposited data

How the results depend on the processing

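Counts of called genes are given as higher and lower on the SHT-BC array, 453 and 141 in the report. With no centring they were 377 and 338, after a lowess trend was removed (span 0.4) 546 and 77, with background at the 99th percentile of olfactory receptor genes 353 and 77, and with the pair centred on its median gene above background, an alternative chosen after seeing the data, 533 and 80. A 3-fold limit gave 229 and 19, and a 4-fold limit 146 and 9. Quantile normalization, the mean or the dimmest of a gene's probes, another floor, background at the 90th percentile, and a call on the difference as read above a level floor each kept both counts within 1.5 times, at 437 to 519 higher and 107 to 173 lower. All 15 named increases stayed at least 2-fold under each centring, probe, floor and background alternative. The 15 named decreases did so too, except for 14 under the mean and the dimmest probe and 10 with background at the 99th percentile. Of the 42 list medians, 10 changed sign between scalings; these were small, and the oocyte, luteal, cilia and fat medians stayed below 0 and the epithelial, secretory and interferon medians above it. No paired analysis was possible because each labelled group held 1 array. Leaving out an array leaves no comparison. Genes near background, where folds are bounds, are limited by signal.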

Other observations

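Some gene families were looked at after the values were seen, so their counts are descriptions. They are to be read against the 4.46% of all genes compared that were called higher and the 1.39% called lower.

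Hox genes, which set position along the body and the genital tract, differed in both directions. Of 19 compared, 6 were higher on the SHT-BC array than on the Mock-Uterus array, all from the Hoxa and Hoxb clusters, and 1 was lower. Beside Hoxa10 and Hoxa11, Hoxb8 read 796 and 196 (2.19 on the log2 scale as read, 1.60 at its bound), Hoxb6 1385 and 521 (1.58), Hoxb7 2868 and 1310.0 (1.30) and Hoxb2 2331 and 1209 (1.12). The Hoxc and Hoxd genes compared all lay below 0 on the centred scale, with Hoxd10 and Hoxd13 at -0.07 and -0.06, which is above the median gene compared (-0.13). Hoxc8 read 776 and 2001 (-1.20) and Hoxc6 3429 and 6666 (-0.79), and both were lower on the 4 other arrays, at most 178 and 234.

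Laminins, the trimeric proteins of basement membranes, were called in both directions, 3 higher and 2 lower of 10 compared. Lamb3 read 3410 on the SHT-BC array and 317 on the Mock-Uterus array (3.59), and Lama3 2075 and 271 (3.11, at its bound 2.98), chains of the laminin under anchored epithelia, and Lama5 lay at 1.33. Lama1 read 415 and 964 (-1.05) and Lamc3 655 and 1781 (-1.27). Of 15 integrins compared, 3 were higher and 0 lower: Itgam of myeloid cells, and Itgb4 and Itga6, whose product binds the laminin of Lamb3 and Lama3, at 1828 and 466 (2.14) and 1278 and 632 (1.19), whereas Itgb1, the common beta chain, lay at -0.42.

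Of 13 claudins compared, 4 were higher: Cldn3, Cldn4, Cldn7 and Cldn23, the last at 3198 and 358 (3.33). The 9 not called ran from -0.88 (Cldn18) to 0.79 (Cldn2), with Cldn1 at -0.65 and Cldn5 of endothelium at -0.43. Of 4 peptidyl arginine deiminases, Padi4 read 1846 and 136 (at least 2.81 at its bound) along with Padi1 and Padi2, whereas Padi6, which is expressed in oocytes, read 8591 and 13923 (-0.53). Of 5 perilipins, Plin4 and Plin5 were lower and Plin2 lay at 0.07.

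Of 9 genes of the NF-kB pathway and its feedback inhibitors compared, 6 were higher and 0 lower. Nfkbia, the inhibitor that the pathway induces, read 14154 and 4993 (1.67), and Nfkbiz, Tnfaip3 and Bcl3 lay at 1.30, 1.06 and 1.06. Of the subunits of the factor, Nfkb1 was higher, at 1967 and 1026 (1.11), and Nfkb2, Rela and Relb lay at -0.09, -0.22 and -0.40. Traf1, an adaptor of the pathway, was also higher (2.06 as read, 1.32 at its bound).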
